A study of Mus musculus with 21 samples.

Results

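The genes described here are Cbs, Cth, Gclc, Gclm, Gss, Gsr, Gpx4 and Txnrd1, 8 of the 19304 protein-coding genes of at least 2 kb whose cover by H3K36me3 peaks was measured. They were taken by name as genes of transsulfuration, glutathione synthesis and selenium-dependent redox defence. Cover is the percent of a gene body, from its annotated start to its end, that lies inside the peaks of a library, and a difference in cover is given in points. The mark profiled, H3K36me3 (histone H3 trimethylated on lysine 36), is laid over bodies of transcribed genes by the methyltransferase SETD2, which uses S-adenosylmethionine made from methionine. Chromatin immunoprecipitation with sequencing was done in C2C12 myoblasts, an established mouse line whose cells fuse to muscle fibres in culture.

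For wild-type (WT) cells there were 2 replicate libraries per condition. The 5 conditions were day 0, control medium at day 1 and at day 5, and methionine restriction at day 1 and at day 5. The labels name no medium for day 0. Setd2 knockout (KO) lines 1 and 2 each had 1 library in the same 5 conditions. The allele of either KO line is not given in the sources used here, loss of SETD2 protein was not measured, and a KO line has no replicate within a condition. The labels call the KO libraries lines 1 and 2, whereas the peak names inside the lists call them replicates of a KO group, and the labels were followed. Nothing in the labels says that the WT replicates came from separate cultures, so p-values measure the spread between these libraries only. Of 6 muscle genes used to check the line, Des, the intermediate filament gene of muscle, and Ttn and Pax7 had cover in 10 of 10 WT libraries, Myod1 in 6, Ckm in 5 and Myog in 4.

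Libraries differed in how much of the genome their peaks covered, and this moved with medium and genotype. WT libraries covered 140 to 183 Mb at day 0 and in control medium and 110 to 134 Mb under restriction. KO line 1 covered 0.307 to 74.1 Mb and KO line 2 0.00821 to 7.13 Mb. A peak list carries no read depth, so its part in these lengths was not tested, and fewer cells with the mark and less of it per cell cannot be told apart in bulk libraries. No counting interval can be given without depth.

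Transsulfuration carries sulfur from methionine, by way of homocysteine, to cysteine, and so joins the methionine cycle to glutathione, the main small thiol of the cell. CBS condenses homocysteine with serine to cystathionine, and CTH cleaves cystathionine to cysteine. Glutamate-cysteine ligase, made of the catalytic subunit GCLC and the modifier subunit GCLM, makes the first and rate-limiting product of glutathione synthesis, and GSS adds glycine to it. GSR returns oxidized glutathione to its reduced form with NADPH. GPX4, a selenoenzyme, uses glutathione to reduce lipid peroxides, and TXNRD1, another selenoenzyme, reduces cytosolic thioredoxin. Several of these genes are known targets of the transcription factor NRF2, which binds antioxidant response elements.

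RefSeq promoter windows on GRCm38.p6, the 250 bases before an annotated start, were at hand for 5 of the 8 genes (Gclm, Gss, Gpx4, Txnrd1 and Cbs) and numbered 10, and Cth, Gclc and Gsr had none. The windows were searched on both strands for TGACNNNGC, the core letters of the antioxidant response element. It matched in 2 of these 10 windows and in 3338 of 32851 windows of all genes (10.2%). Both matches lay on the minus strand, 64 bases before the annotated gene body of Gclm (134 before the transcript start at 122245557, which lies inside that body) and 92 bases before a start inside the Txnrd1 body. A match is only a run of letters and shows no binding. The sequences of both are shown with the match in capitals, since Gclm is the gene whose cover rose under restriction on both days. Gclm is shown from chr3:122245307-122245486 on the plus strand, the 180 bases of its window that lie before the annotated gene body.
Gclm window: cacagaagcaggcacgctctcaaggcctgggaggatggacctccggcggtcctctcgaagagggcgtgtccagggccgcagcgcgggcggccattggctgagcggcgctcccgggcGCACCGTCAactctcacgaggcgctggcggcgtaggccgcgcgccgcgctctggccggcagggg
For Txnrd1 and Gpx4 the pairs of windows before the first annotated start and before the first start inside the body are shown, since in every WT library peaks covered only bases past the inside start. The Txnrd1 windows are chr10:82833701-82833950 and chr10:82858956-82859205, and those of Gpx4 are chr10:80046916-80047165 and chr10:80053315-80053564, all on the plus strand.
Txnrd1 first window: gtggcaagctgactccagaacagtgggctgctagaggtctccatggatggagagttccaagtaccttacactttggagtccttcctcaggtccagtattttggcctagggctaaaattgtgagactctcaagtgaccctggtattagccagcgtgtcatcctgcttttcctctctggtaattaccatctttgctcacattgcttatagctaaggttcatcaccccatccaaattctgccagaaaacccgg
Txnrd1 inside window: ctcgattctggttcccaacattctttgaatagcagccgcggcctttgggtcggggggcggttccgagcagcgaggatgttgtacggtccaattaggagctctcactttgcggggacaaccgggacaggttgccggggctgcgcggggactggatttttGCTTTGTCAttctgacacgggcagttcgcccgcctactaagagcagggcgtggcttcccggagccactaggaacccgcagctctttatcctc
Gpx4 first window: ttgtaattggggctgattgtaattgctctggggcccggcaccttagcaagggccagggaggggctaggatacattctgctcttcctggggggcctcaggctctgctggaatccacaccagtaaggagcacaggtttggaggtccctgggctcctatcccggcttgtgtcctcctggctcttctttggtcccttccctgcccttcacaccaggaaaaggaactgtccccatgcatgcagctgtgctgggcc
Gpx4 inside window: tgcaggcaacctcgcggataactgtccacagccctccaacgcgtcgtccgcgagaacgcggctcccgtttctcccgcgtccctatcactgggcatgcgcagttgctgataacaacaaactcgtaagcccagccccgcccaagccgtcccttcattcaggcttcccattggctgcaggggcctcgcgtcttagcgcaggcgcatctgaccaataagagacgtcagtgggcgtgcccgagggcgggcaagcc
The inside window of Txnrd1 holds the match in capitals, while neither Gpx4 window and not the first Txnrd1 window holds these letters. In GC content the inside windows were at 59.6% for Txnrd1 and 63.2% for Gpx4, against 48.4% and 58.8% for the first windows. No WT library had a peak in any of these 5 windows or in those of Gss and Cbs.

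The enzymes of transsulfuration proper carried almost no H3K36me3 peaks, a state shared with many genes, since 45.4% to 49.8% of all genes were at 0% in a WT library. Cbs (chr17:31612623-31637233) was at 0% in all 20 libraries. Cth (chr3:157894248-157925081) was at 0% in 8 of 10 WT libraries, with 0.934% in replicate 1 of day 0 and 1.21% in replicate 1 of restricted day 1, and at 0% in all 10 KO libraries. The peak of Cth at day 0 was 0.288 kb long with a −log10 q of 1.53, as deposited by the authors. Neither gene reached the mean cover of 5% needed for a test, so no comparison of Cbs or Cth between conditions was made. The genes next to Cbs did carry the mark, with U2af1, a splicing factor gene 9.85 kb away, at 89.8% and 88.6% at day 0.

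The other 6 genes passed that filter and were tested among 9514 genes in WT and 8861 genes in KO against WT. Their mean cover over the 10 WT libraries was 58.7% for Gss, 57.5% for Gclc, 50.4% for Txnrd1, 50% for Gsr, 34.2% for Gclm and 13.4% for Gpx4. Gss, Gclc, Txnrd1 and Gsr stood close together in this order relative to their ranges, which overlapped. A cover of at least 50%, here called marked, was reached by Gclc in 7, by Txnrd1 in 6, by Gss and Gsr in 5 each, by Gclm in 2 and by Gpx4 in 0 of the 10 WT libraries. The plot of cover by library and condition shows these levels beside the KO lines.

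**Figure D1:**
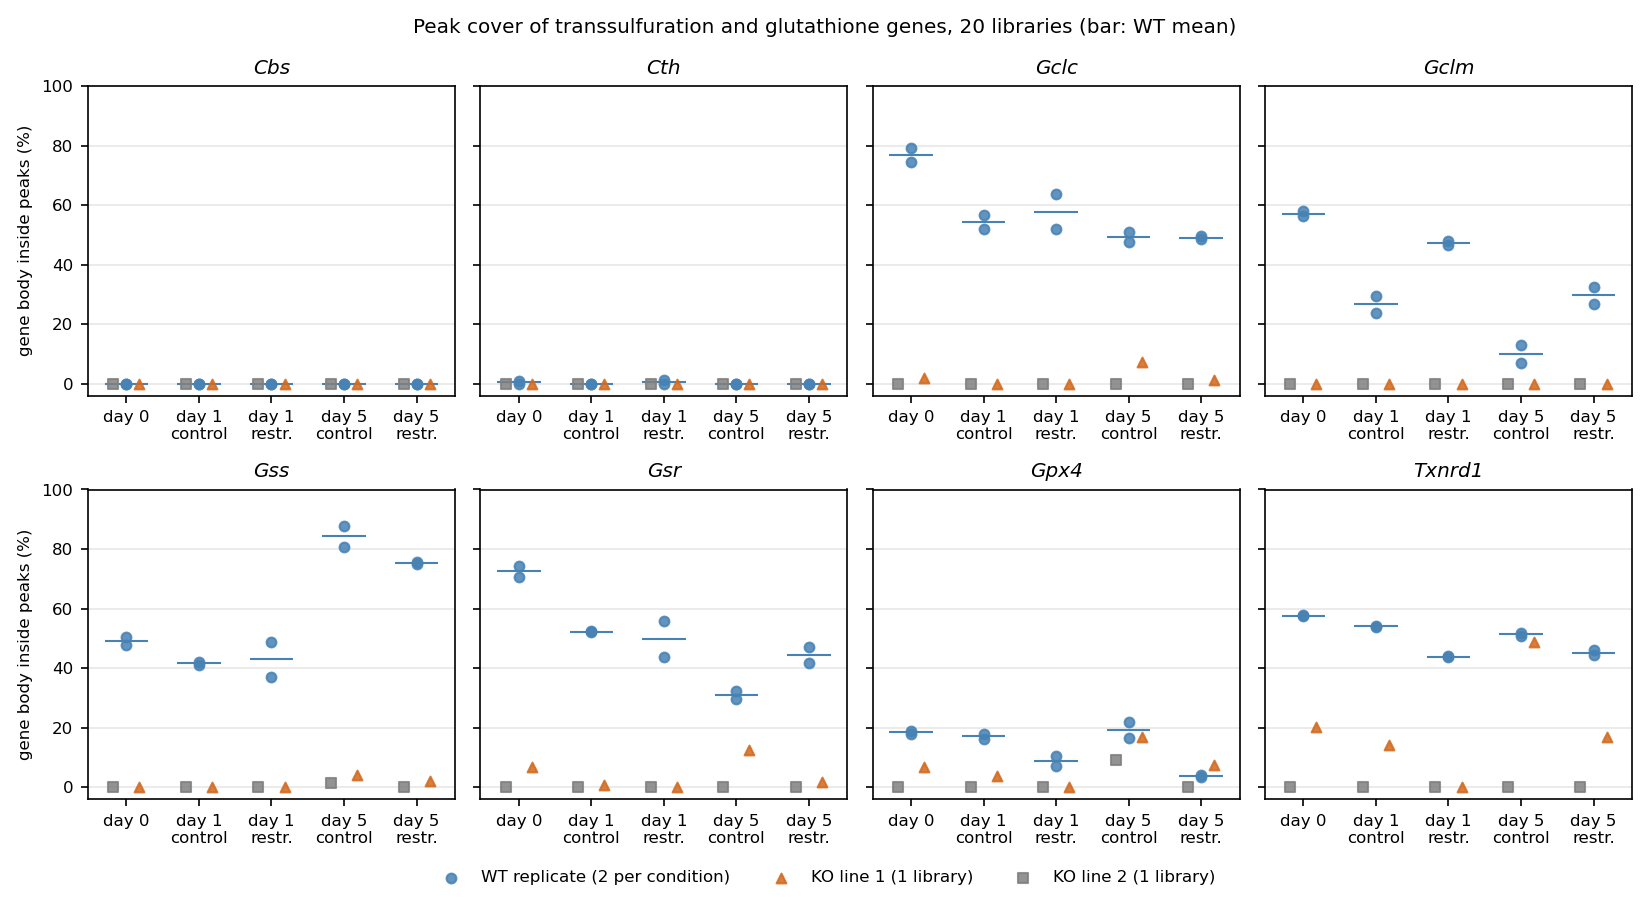
Percent of each gene body inside H3K36me3 peaks (vertical axis) in 5 conditions (horizontal axis), with WT replicates as circles, their mean as a bar, KO line 1 as triangles and KO line 2 as squares, 1 library each. In WT, Gclm was higher under restriction than in control medium on both days, and Gss was higher on day 5 in either medium than at day 0 or day 1. KO line 1 lay near the WT level on day 5 in control medium for Txnrd1 (48.7%) and Gpx4 (17%). Of the 14.1 kb peak on Gpx4 in that library, 12.5 kb lay past the gene end.

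In WT cells, restricted libraries were set against those in control medium within day 1 and within day 5, which asks how the mark over these genes answers to methionine supply. Gclm rose on both days, Gsr rose on day 5, Gpx4 fell on both days and Txnrd1 fell on day 1, while Gclc and Gss did not pass the test on either day. At day 1, 1 of the 6 genes tested was called higher and 2 lower, against 38.3% of all genes, 2.38% higher and 36.0% lower. At day 5, 2 were called higher and 1 lower, against 45.8% of all genes, 4.32% higher and 41.5% lower. The median difference was −0.548 points over the 6 genes and −7.99 over all genes at day 1, and −3.20 and −9.16 at day 5. Centring each library on its median adds 15.2 points at day 1 and 16.7 at day 5 to the difference of every gene alike, which moves the median of all genes to 7.20 and 7.52, so a change of sign under it is set by that shift and is read against these medians. The fall of Gpx4 and Txnrd1 at day 1 was thus close in size to the median of −7.99. With neither centring nor equal list lengths, the count of lower genes stood near its background at day 1 and under it at day 5, with only 6 genes behind either. After centring, Gclc, Gclm, Gsr and Gss were called higher at day 1, and Gclc, Gclm, Gsr and Txnrd1 at day 5. Of all 9514 genes, 3518 and 3757 were then called higher.

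Cover of the 6 muscle genes was set beside these differences, as means of 2 libraries without a test. The mean cover of Myod1, the myoblast regulator, was 59% in control medium and 0% under restriction at day 1, and 72.6% and 0% at day 5. Myog, the regulator of differentiation, was at 0% at day 0, at 71.9% and 92.6% in control medium at day 1 and day 5, and at 0% under restriction on both days. Des was at 84.5% against 37.3% at day 1 and at 86.8% against 43.3% at day 5, and Ttn, the titin gene, at 93.7% against 74.5% and 96.8% against 93.5%. Ckm, the muscle creatine kinase gene, was at 1.76% against 0% and at 69.8% against 7.53%, and Pax7, a satellite cell regulator, at 6.03% against 1.04% and 2.11% against 1.15%. All 6 means were lower under restriction on both days, as were the means of 77.1% of all 9514 genes tested at day 1 and 77.3% at day 5, so nothing particular to muscle genes is read from that count, and the part of differentiation in the differences of Gclm, Gsr, Gpx4 and Txnrd1 was not tested.

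Gclm (chr3:122245487-122267215), the modifier subunit of glutamate-cysteine ligase, was covered to 23.7% and 29.6% at day 1 in control medium and to 47.8% and 46.7% under restriction. At day 5 it was covered to 13.1% and 7.06% in control medium and to 32.6% and 26.8% under restriction. Both restricted libraries lay above both control libraries on each day. The difference was 20.7 points (SE 4.02, 95% interval 11.5 to 29.8, limma adjusted p = 0.00445) at day 1 and 19.6 points (SE 4.02, 10.5 to 28.8, limma adjusted p = 0.00460) at day 5, with n = 2 per group. Of the 9514 genes tested, 60 had a larger difference at day 1 and 178 at day 5. The call held in all 20 alternatives on both days, with limma adjusted p up to 0.0381 at day 1 and 0.0436 at day 5.

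Gclc (chr9:77754535-77794489), the catalytic partner of GCLM, was not called on either day. It was covered to 51.9% and 56.6% in control medium and 63.7% and 51.8% under restriction at day 1, and to 51.0% and 47.6% against 49.6% and 48.5% at day 5. The groups overlapped on both days. The differences were 3.50 points (95% interval −7.25 to 14.2, limma adjusted p = 0.595) and −0.265 points (−11.0 to 10.5, limma adjusted p = 0.976). After centring the day 1 difference was 18.7 points (limma adjusted p = 0.00266). With lists cut to equal covered length the day 5 difference was 25.4 points (limma adjusted p = 0.0140), and with libraries centred on their median it was 16.4 (limma adjusted p = 0.00405).

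Gss (chr2:155563181-155592810), which completes glutathione, was covered to 40.9% and 42.2% in control medium and 48.9% and 36.9% under restriction at day 1. At day 5 its values were 87.8% and 80.7% against 75.8% and 75.1%. The day 5 groups did not overlap, but the difference of −8.81 points (95% interval −19.6 to 2) did not pass the test, with limma adjusted p = 0.162. At day 1 the difference was 1.35 points (−9.46 to 12.2, limma adjusted p = 0.851), and 16.5 points (limma adjusted p = 0.00483) after centring.

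Gsr (chr8:33653238-33698162), the glutathione reductase gene, was covered to 52.1% and 52.4% in control medium and 55.9% and 43.7% under restriction at day 1, where the groups overlapped. At day 5 it was covered to 29.6% and 32.4% in control medium and to 47.1% and 41.8% under restriction, with both restricted libraries higher. The day 5 difference was 13.5 points (SE 4.77, 95% interval 2.56 to 24.4, limma adjusted p = 0.0474). After centring it was 30.2 points (limma adjusted p = 0.000580), with equal list lengths 23.9 (limma adjusted p = 0.0207), and with a −log10 q of at least 3 it was 22 (limma adjusted p = 0.0680). That call is a narrow one, held in 7 of 20 alternatives, with limma adjusted p up to 0.225, reached without replicate 1 of restricted day 5. It was lost with any library of day 0, of day 1 in control medium or of day 5 left out, and with the replicate number as a block (limma adjusted p = 0.0511). The day 1 difference was −2.44 points (−13.4 to 8.48, limma adjusted p = 0.723), and 12.7 points (limma adjusted p = 0.0315) after centring. The difference between the day 5 and day 1 effects was 15.9 points (95% interval 0.478 to 31.4) and was not called (limma adjusted p = 0.230).

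Among the selenoenzymes, Gpx4 (chr10:80047166-80056439) fell under restriction on both days. The pseudogenes Gpx4-ps1 and Gpx4-ps2 may share reads with it, and how the authors treated such reads is not given in the sources used here. It was covered to 16.3% and 17.8% in control medium and 10.3% and 6.98% under restriction at day 1, and to 21.9% and 16.4% against 4.12% and 3.48% at day 5. The groups did not overlap on either day. The difference was −8.41 points (SE 2.50, limma adjusted p = 0.0288) at day 1 and −15.3 points (SE 2.50, limma adjusted p = 0.00149) at day 5, and after centring it was 6.77 and 1.34, still below the centred medians of all genes. The day 1 call held in 11 of 19 alternatives. Besides centring, it was lost with only the groups compared (limma adjusted p = 0.0535), with no filter on cover (0.0666), without either day 1 control library (limma adjusted p = 0.0777 and 0.129), without replicate 2 of restricted day 1 (0.158) and without either restricted day 5 library (0.0534 and 0.0539).

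Txnrd1 (chr10:82833951-82897724) was covered to 54.3% and 53.7% in control medium and to 43.6% and 44.1% under restriction at day 1, with no overlap. At day 5 its values were 50.9% and 51.8% against 44.3% and 46.0%. The difference was −10.2 points (SE 3.36, limma adjusted p = 0.0430) at day 1 and −6.14 points (SE 3.36, limma adjusted p = 0.170) at day 5, and after centring it was 5.01, below the centred median of all genes, and 10.5, above it. The day 1 call held in 7 of 20 alternatives and was lost without any library of day 1 or day 5 and with the replicate block (limma adjusted p = 0.0643). No gene of the 6 was called for a difference between the day 5 and the day 1 effects, against 5.20% of all genes in limma, 1.62% higher and 3.58% lower, and 1 of the 6, Gsr, had an unadjusted p under 0.05, as did 20.3% of all genes.

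**Figure D2:**
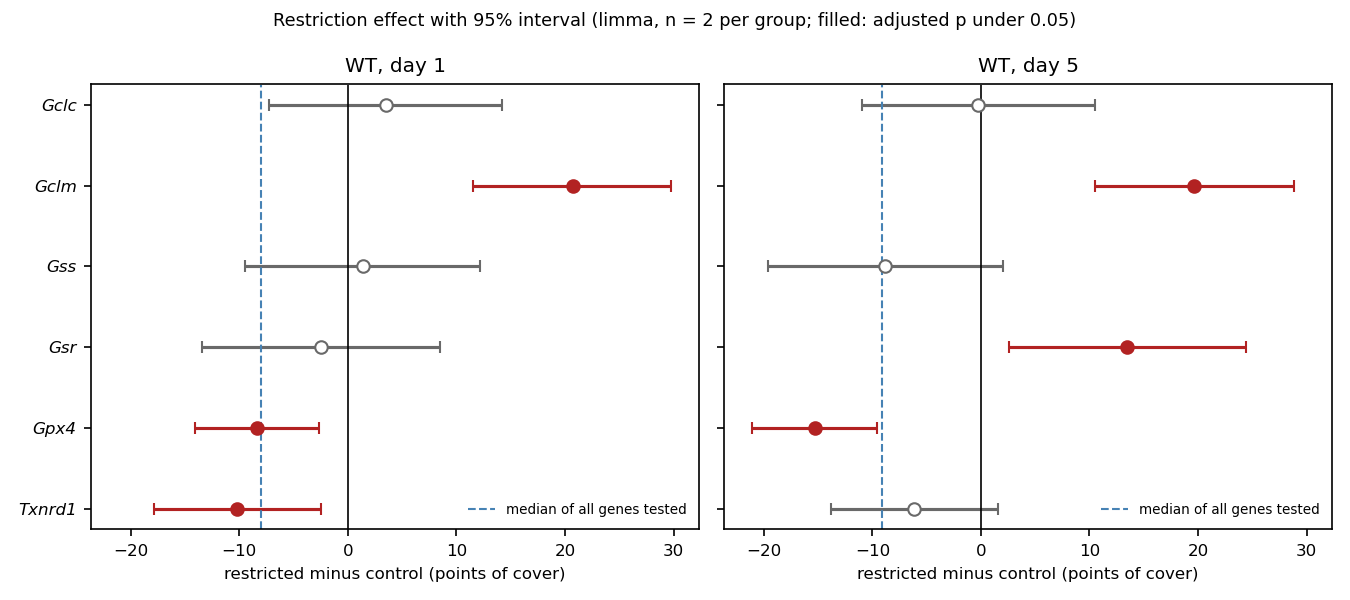
Difference in cover, restricted minus control medium, in points (horizontal axis) for the 6 genes tested (vertical axis) in WT at day 1 and day 5, with limma 95% intervals. Gclm lay at 20.7 and 19.6 points and Gpx4 at −8.41 and −15.3, and the dashed lines mark the median of all genes at −7.99 and −9.16.

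Day 0 was next compared with days 1 and 5 in control medium, and day 1 with day 5 in each medium. No medium is named for day 0, so whether the medium changed along with the day is not known. These comparisons share libraries with each other and with those of restriction, so they are not independent. From day 0 to day 5 in control medium Gclm, Gsr and Gclc fell and Gss rose. In that comparison 1 of the 6 genes was called higher and 3 lower, while 27.8% of all genes were called, 12.2% higher and 15.6% lower. From day 0 to day 1 the counts were 0 higher and 3 lower, against 6.63% of all genes called, 0.967% higher and 5.67% lower. The median difference over the 6 genes was −16.9 points to day 5 and −14.0 to day 1, and over all genes −1.17 and −5.31.

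Gclm started at 57.9% and 56.4% at day 0, its highest values, and both control libraries were lower at day 1 and lower again at day 5. It fell by 30.5 points to day 1 (limma adjusted p = 0.00592) and by 47.1 points to day 5 (limma adjusted p = 5.24e-05). The order of its group means was day 0 (57.2%), restricted day 1 (47.3%), restricted day 5 (29.7%), control day 1 (26.6%) and control day 5 (10.1%), and of neighbours in that order only restricted day 5 and control day 1 overlapped. The day 1 call held in 18 of 20 alternatives, and was lost with only the groups compared (limma adjusted p = 0.136) and without replicate 1 of control day 1 (0.0512), and that to day 5 held in all 20 alternatives.

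Gsr was covered to 74.3% and 70.7% at day 0, above all later libraries, and fell by 20.3 points to day 1 (limma adjusted p = 0.0426) and by 41.5 points to day 5 (limma adjusted p = 0.000312). Gclc was covered to 79.2% and 74.6% at day 0, also above all later libraries, and fell by 22.7 points (limma adjusted p = 0.0295) and 27.6 points (limma adjusted p = 0.00282). Both calls to day 5 held in all 20 alternatives. Those to day 1 held in 6 of 20 alternatives for Gsr and 8 of 20 for Gclc, and with only the groups compared in the fit no gene was called from day 0 to day 1, although 1898 had an unadjusted p under 0.05 in limma. Without replicate 1 of control day 1 the limma adjusted p was 0.184 for Gsr and 0.160 for Gclc, the highest of the fits that left out 1 library.

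Gss moved the other way, from 50.5% and 47.9% at day 0 to 87.8% and 80.7% at day 5 in control medium, a rise of 35.1 points (SE 4.72, limma adjusted p = 0.000767). At day 1 it had not risen, with −7.64 points from day 0 (limma adjusted p = 0.352). Its body is overlapped over 84.1% of its length by the long noncoding RNA gene Gssos2, whose own cover went from 41.7% and 38.5% to 80.0% and 73.7%. In the bases of Gss that lie in no other gene the rise was 12.6 points and was not called (limma adjusted p = 0.312). The genes on either side also had more cover at day 5, with Acss2, an acetyl-CoA synthetase gene 0.437 kb away, from 2.42% and 0.904% to 25.8% and 20%. Myh7b, a myosin gene 18.4 kb away, went from 15.5% and 18.4% to 95.8% and 86.8%. In replicate 1 of control day 5 a peak of 30.3 kb ran from inside Gss 5.60 kb past its lower end. The part of neighbouring genes in the rise of Gss was not tested, and a peak does not tell which strand was transcribed.

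Gpx4 and Txnrd1 were called in neither comparison with day 0. Gpx4 was at 19% and 17.9% at day 0, with −1.36 points to day 1 (95% interval −7.09 to 4.37) and 0.706 points to day 5 (−5.02 to 6.43), limma adjusted p = 0.778 and 0.879. Txnrd1 was at 57.5% and 57.7% at day 0, with −3.57 points to day 1 (−11.3 to 4.13) and −6.26 points to day 5 (−14.0 to 1.44), limma adjusted p = 0.541 and 0.215. Neither interval excludes a change of several points.

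From day 1 to day 5 in control medium 1 gene was called higher and 2 lower, against 23.1% of all genes called, 17.1% higher and 5.95% lower. Gss rose by 42.7 points (limma adjusted p = 0.000339), Gsr fell by 21.3 points (limma adjusted p = 0.0134) and Gclm fell by 16.6 points (limma adjusted p = 0.0191). In the bases of no other gene the rise of Gss was 21.7 points (limma adjusted p = 0.0961). The Gclm call held in 17 of 20 alternatives, and was lost with a −log10 q of at least 3 (limma adjusted p = 0.138) and without replicate 2 of control day 1 or of control day 5 (0.114 and 0.106). The Gsr call held in 16 of 20, and was lost with that threshold (limma adjusted p = 0.196) and without either control day 1 library or replicate 1 of control day 5 (0.0692, 0.0651 and 0.0874).

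Under restriction 1 gene rose and 1 fell from day 1 to day 5, against 12.4% of all genes called, 8.73% higher and 3.71% lower. Gss rose by 32.6 points (limma adjusted p = 0.00346) and Gclm fell by 17.6 points (limma adjusted p = 0.0257). The Gss call held in 18 of 20 alternatives, and was lost with lists of equal length (limma adjusted p = 0.0531) and with only the groups compared (0.0536). The Gclm call held in 13 of 20, with limma adjusted p up to 0.182, and was lost without any library of restricted day 1 or day 5. So Gclm was higher under restriction than in control medium at either day and still lower at day 5 than at day 1 within each medium.

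Where the peaks lay within a gene body differed among the genes. Bodies were divided into 10 bins of equal length, numbered from the 5′ end, and over 7711 genes of known strand the mean cover rose from 11.3% in the first bin to 73.1% in the last in replicate 1 of day 0. In Gclm most of the cover also lay toward the 3′ end, except in replicate 2 of control day 5, where bins 7 and 8 were at 46.8% and 23.7% and bins 9 and 10 at 0%. At day 0 its bins 7 to 10 were covered to between 74.3% and 100%, and at day 5 in control medium its bins 1 to 6 were at 0% in both libraries. Under restriction at day 1 bins 9 and 10 were at 100% in both libraries and bin 8 was at 100% and 84.5%, where control medium had 12.8% and 41.5%. Control medium at day 1 already had 97.3% and 100% in bin 9, and 48.6% and 100% in bin 10. Under restriction at day 5 bin 9 was at 100% and 68.2%, where control medium had 36.8% and 0%.

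Txnrd1 had no peak in its first 4 bins in any WT library. From the start inside the body at position 82859206, which leaves 38.5 kb to the gene end, it was covered to 95.2% and 95.5% at day 0. Counted from there, cover was 90% and 88.9% at control day 1, 72.1% and 73.0% at restricted day 1, 84.2% and 85.7% at control day 5, and 73.4% and 76.2% at restricted day 5. On this measure, chosen after the data were seen, cover under restriction minus that in control medium came to −16.8 at day 1 and to −10.2 at day 5. It divides the same covered bases by a shorter length, so it is given as a description, without a test. The long noncoding RNA gene Gm38560, which overlaps Txnrd1, was at 0% in the WT libraries, and Eid3, a gene of 1.30 kb inside it, was at 100% in both day 0 libraries.

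In WT libraries Gpx4 had peaks only at its 3′ end, in bins 9 and 10 of its 9.27 kb and, in 1 control library of day 5, bin 8. From the start inside the body at position 80053565, which leaves 2.88 kb, it was covered to 61.2% and 57.7% at day 0. In control medium that measure was 52.7% and 57.4% at day 1 and 70.5% and 52.9% at day 5. Under restriction it was 33.4% and 22.5% at day 1 and 13.3% and 11.2% at day 5. This measure was also chosen after the data were seen, and its difference under restriction, given without a test, came to −27.1 at day 1 and to −49.5 at day 5. The peak that covered Gpx4 at day 0 was 14.2 kb long in either library, of which 12.4 and 12.5 kb lay past the gene end, toward Sbno2, a gene 0.552 kb away. At restricted day 5 the peaks in Gpx4 were 0.382 and 0.323 kb long. Sbno2 itself was covered to 82.9% and 78.0% at control day 5 and 43.5% and 46.4% at restricted day 5, and the part of Sbno2 in the values of Gpx4 was not tested.

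**Figure D3:**
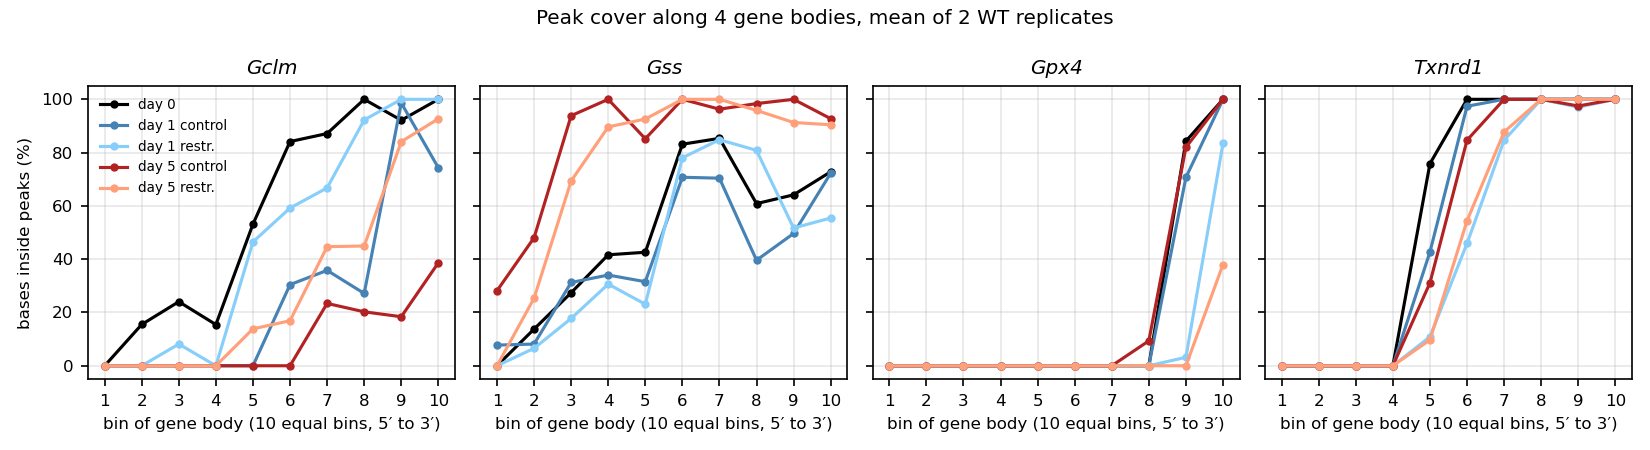
Percent of bases inside peaks (vertical axis) in each of 10 bins of the gene body from 5′ to 3′ (horizontal axis) for Gclm, Gss, Gpx4 and Txnrd1, as the mean of 2 WT replicates per condition. Txnrd1 had no cover in bins 1 to 4 in any condition, Gpx4 had it only from bin 8 on, and for Gclm the restricted lines lay above the control lines of the same day in bins 8 to 10.

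The authors' fold enrichment, used only to rank peaks within a list, placed the highest peak of Txnrd1 above 98.2% to 99.9% of its list's peaks in every WT library. For Gpx4 the corresponding shares were 94.0% to 98.3% at day 0 and in control medium, 49.3% and 1.70% at restricted day 1, and 2.01% and 11.4% at restricted day 5. For Gclm they were 55.8% and 20.3% at control day 5 and 80.1% and 92.8% at restricted day 5. These lists differ in length, so the ranks show no change by themselves. A ranked peak may also lie mostly outside the gene. At day 0 and in control medium the peaks on Gpx4 were 4.39 to 14.6 kb long, with 2.74 to 12.5 kb past the gene end. At restricted day 5 they were 0.382 and 0.323 kb long, so peaks of unlike extent are ranked.

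The KO lines were compared with WT over all conditions, which asks how far the mark over these genes goes with SETD2. The mean of the 10 KO libraries was 0% for Gclm, against 34.2% in WT, 0.744% for Gss against 58.7%, 1.07% for Gclc against 57.5%, 2.12% for Gsr against 50%, 4.36% for Gpx4 against 13.4% and 10% for Txnrd1 against 50.4%. Genes entered this comparison at a mean cover of at least 5% over all 20 libraries, which the first 5 of these 6 reached only through WT, so their differences are given as values without a test. Over all genes that filter likewise takes in those high in WT. After it 98.0% of 8861 genes were called, 97.9% lower and 0.0339% higher, with a median difference of −42.3 points, and without it 54.0% of 19304, 53.0% lower and 0.948% higher, with a median of −3.75. At Txnrd1, whose KO mean alone passes the filter, the difference was −40.4 points (SE 5.28, limma adjusted p = 6.52e-06), and this call held in each alternative run. In an exact permutation of genotype within condition its two-sided p was 0.000257, the smallest that 7776 arrangements can give. Both p-values treat the 10 KO libraries as separate samples, although they come from 2 lines measured in 5 conditions each and the lines differ, so the spread between lines rests on 2.

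KO line 2 was at 0% for these 6 genes in every library except control day 5, where Gss was at 1.29% and Gpx4 at 8.99%. That cover of Gpx4 lay in bins 5 and 6, where no WT library had any. KO line 1 kept cover at Txnrd1 in 4 of 5 libraries, with 20.3% at day 0, 14.3% at control day 1, 0% at restricted day 1, 48.7% at control day 5 and 16.8% at restricted day 5. At control day 5 this was 94.9% of the WT mean, while the median share over 8855 genes was 21.7%, and 90.5% of those genes had a lower share. Gpx4 in KO line 1 was at 6.70%, 3.58%, 0%, 17% and 7.32% in the same order, and its share at control day 5 was 88.7%. The peak on Gpx4 in that control day 5 library was 14.1 kb long, with 1.57 kb inside the gene and 12.5 kb past its end. Sbno2 was covered to 79.3% there, and its part in the share of Gpx4 was not tested.

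The other genes kept less in that library, with 40.0% of the WT mean for Gsr, 14.8% for Gclc, 4.82% for Gss and 0% for Gclm. At control day 5 the Txnrd1 peaks of KO line 1 lay in the stretch covered in WT, with bins 1 to 4 at 0% and bin 8 at 100%. At restricted day 5 bin 4 was at 4.39% and the inside window at 25% in KO line 1, where no WT library had any cover. KO line 1 covered 74.1 Mb at control day 5, 0.307 Mb at restricted day 1, and 13.9 to 45.8 Mb at day 0, control day 1 and restricted day 5. The part of this length in the values of single genes was not tested. With 1 library per line and condition no test of a line within a condition was made.

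The other genes of the pathway were taken from 6 lists of 82 genes, of which 80 were measured and 57 tested in WT. Under restriction at day 1, 1 of the 57 was called higher, 23 lower and 33 were not called, and at day 5 the counts were 0, 22 and 35. Of all genes tested, 36.0% fell and 2.38% rose at day 1, against 41.5% and 4.32% at day 5, so the counts of lower genes stood near that background. Over these 57 genes the median was −8.93 points at day 1 and −7.50 at day 5, beside −7.99 and −9.16 over all genes. Prdx2, a cytosolic peroxiredoxin, was at 52.5% ± 9.17 (SD, n = 2) in control medium and 0% ± 0 under restriction at day 1. At day 5 it was at 70.0% ± 3.19 and 0% ± 0. It passed the filter on cover only through libraries without restriction, so no p-value is given, though it stays in the counts. Chac1, a γ-glutamylcyclotransferase that degrades glutathione, was at 70.8% ± 4.03 against 10.4% ± 14.6 at day 1 and at 70.9% ± 0.0229 against 13.8% ± 19.5 at day 5 (limma adjusted p = 0.00140 and 0.00145).

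The counts in each list are small, and are to be read against the same shares of all genes, 36.0% lower at day 1 and 41.5% at day 5. In the list of glutathione precursor supply and breakdown none of the 6 tested genes rose on either day (limma), 1 fell at day 1 and 4 fell at day 5. Among glutathione peroxidases and transferases 1 of 8 was higher and 1 lower at day 1, and 0 and 3 at day 5, where all genes had 2.38% and 4.32% higher. The gene that rose was Gstz1, a maleylacetoacetate isomerase, by 12.1 points at day 1 (SE 3.1, limma adjusted p = 0.0158), and 38.8% of its body lies in other genes. Its cover at day 1 was low in control medium, at 2.47%, against 14.6% under restriction. At day 5 its difference was −5.47 points and was not called (limma adjusted p = 0.185). Gstp1, a glutathione transferase, went from 41.8% and 43.7% in control medium to 0% on both days. Like Prdx2, it passed the filter only through libraries without restriction. Gpx3, the extracellular glutathione peroxidase, fell by 34.0 points at day 5 (limma adjusted p = 0.000242).

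Of 15 thioredoxin, peroxiredoxin and glutaredoxin genes 7 were lower at day 1 and 4 at day 5. Srxn1, whose product repairs overoxidized peroxiredoxins, fell by 35.6 points at day 1 (limma adjusted p = 0.00201). It was not called at day 5, with −3.63 points (limma adjusted p = 0.652). In the NRF2 and NADPH list 7 of 14 were lower on each day and 0 higher, beside 36.0% and 41.5% of all genes lower. Keap1, the inhibitor of NRF2, fell by 37.4 points at day 1 and by 27.1 at day 5 (limma adjusted p = 0.000115 and 0.000398). Nfe2l2, which encodes NRF2, fell by 49.0 points at day 5 (limma adjusted p = 0.000128). At day 1 its difference of −10.2 points was not called (limma adjusted p = 0.134). Of 6 genes of cysteine and sulfide breakdown 2 were lower at day 1 and 1 at day 5, and of 8 genes in the selenoprotein list 5 and 3, and Selenow, a small muscle selenoprotein gene, fell by 57.4 and 57.8 points (limma adjusted p = 0.000507 and 0.000360).

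**Figure D4:**
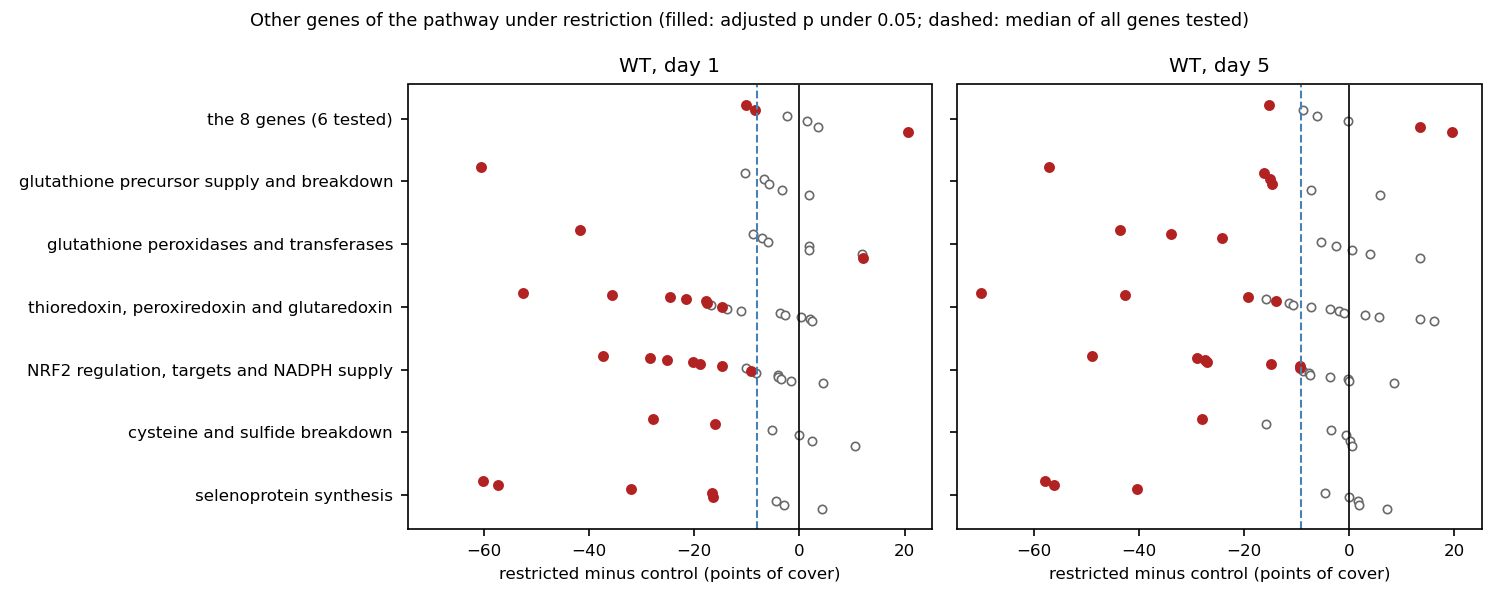
Difference in cover, restricted minus control medium, in points (horizontal axis) for the 6 genes tested and the other pathway genes by list (vertical axis) in WT at day 1 and day 5. Filled points passed the test, and of the 57 other pathway genes tested 1 was called above 0 (Gstz1, 12.1) and 23 below at day 1, and 0 and 22 at day 5.

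The genes whose cover over the 10 WT libraries was most like that of each gene were found by the mean absolute difference in cover. For Gclm the nearest was Obi1 at 3.79 points, whose cover ran from 9.67% to 56.5%, near the range of 7.06% to 57.9% for Gclm. For Gclc it was Samhd1 at 3.66 points, for Gsr Dclre1a at 5.27 and for Gss Rbl2 at 6.10. For Txnrd1 it was Mrpl18 at 1.90 points, and for Gpx4 it was Pcdhgb1 at 1.89, followed by Nedd9 at 1.90 and Ankrd33b at 1.91. These are descriptions over libraries that share groups and list lengths.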

How the data were processed

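The authors deposited 20 H3K36me3 peak lists, 1 per library and not pooled, and the build GRCm38 is given per the submitters' processing notes. The peak caller, its control, the aligner and the read filters are not given in the sources used here. Fold enrichment, a ratio of each peak to the authors' background, was deposited with the peaks and used only to rank peaks within a list. The authors also gave each peak a −log10 p-value and a −log10 q-value, of which the q-value served as an alternative threshold, and the score column they deposited was not used. Per the labels' protocols a Drosophila chromatin spike-in was added, and no scaling by it was applied. Files of the input sample were not used here.

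Peaks of a library were merged where they overlapped, and the bodies of the 19304 protein-coding RefSeq genes (GRCm38.p6) not shorter than 2 kb were scored for cover. The table of genes holds no strand, so strand came from the promoter windows, and Cth, Gclc and Gsr have none. Since cover is not a count, genes were tested with limma 3.58.1 (lmFit, eBayes with trend and robust) in R 4.3.3, with Benjamini-Hochberg adjustment over all genes tested and calls under 0.05. WT comparisons used the 10 WT libraries in 5 groups, with the spread estimated jointly, and genes whose mean cover reached 5%, and KO minus WT used all 20 libraries in 10 groups. Depth is unknown, so precision rests on replicates alone.

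The steps were tested on simulated data with 200 changed genes. Alternatives were the peak threshold, equal list lengths, centring, filters, merging, gene bases, limma settings, groups in the fit, a replicate block and leaving out each library. Restricting Gpx4 and Txnrd1 to an inside start, and dropping day 1 restricted libraries, were chosen after seeing the data. The 8 genes were all named by rule, with the 3 genes most like each, and per pathway list at most the 2 called genes with the largest difference. The members and lists were chosen with earlier results of these data known.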

Additional observations from a re-analysis of the deposited data

Results flagged for a closer look

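In KO line 1 several of these genes moved against every WT library, and these differences between genotypes were not tested, with 1 library per line and condition. Under restriction at day 5 the cover of Gsr changed by −10.8 points in KO line 1, from 12.4% to 1.55%, where WT changed by 13.5. From day 0 to day 5 in control medium KO line 1 changed by 5.26 points at Gclc (WT −27.6), by 5.77 at Gsr (WT −41.5) and by 28.4 at Txnrd1 (WT −6.26). From day 1 to day 5 in control medium it changed by 7.29 points at Gclc (WT −4.94), by 11.7 at Gsr (WT −21.3) and by 34.4 at Txnrd1 (WT −2.69). From day 1 to day 5 under restriction it changed by 1.38 points at Gclc (WT −8.70) and by 7.32 at Gpx4 (WT −4.86). Of the WT changes given here, those of Txnrd1 and Gpx4, and those of Gclc from day 1 to day 5, did not pass the test. Over the same libraries the length covered by peaks in KO line 1 was 17.7 Mb at day 0, 13.9 Mb and 74.1 Mb in control medium at days 1 and 5, and 0.307 Mb and 45.8 Mb under restriction, and its part in these values was not tested.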

How the results depend on the processing

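Over the alternatives run for the 6 tested genes in the WT comparisons, 710 results kept direction and side of the threshold. With the direction kept, 78 lost the call and 5 gained it. The other 40 changed sign and are counted apart, whether or not the call also changed. Of the 40, 3 were of a called value (Gpx4 at both days and Txnrd1 at day 1), under centring, which adds 15.2 points at day 1 and 16.7 at day 5 to every gene and moves the median of all genes to 7.20 and 7.52, so these signs are set by that shift, and 12 came from leaving out 1 library. Centring each library on its median gave, in points, 6.77 for Gpx4, 12.7 for Gsr and 5.01 for Txnrd1 under restriction at day 1, 16.4 for Gclc, 1.34 for Gpx4, 7.87 for Gss and 10.5 for Txnrd1 at day 5, and 0.485 for Gclm in the difference between days. It also gave 7.12 for Gpx4, 0.839 for Gss and 4.91 for Txnrd1 from day 0 to day 1, and −4.04 for Gpx4 in control medium and −3.28 for Txnrd1 under restriction from day 1 to day 5. Equal list lengths gave 9.69 for Gsr at day 1, 25.4 for Gclc and 0.844 for Gss at day 5, 7.24 for Gclc between days, 13.7 for Gss from day 0 to day 1 and −2.23 for Txnrd1 from day 1 to day 5 under restriction. A −log10 q of at least 3 gave 21.9 for Gclc at day 5, 7.15 for Gclc and 0.127 for Gclm between days, and 3.57 for Gclc, 6.06 for Gsr and −0.0353 for Txnrd1 from day 1 to day 5 under restriction. Merging within 1 kb gave −2 for Gclc at day 1, and bases of no other gene gave −11.8 for Gss at day 1 and 10.4 between days. Leaving out 1 library gave ranges across 0 for Gclc (−2.43 to 9.43 at day 1, −1.96 to 1.43 at day 5 and −9.69 to 2.17 between days), Gclm between days (−4.02 to 2.01), Gsr (−8.53 to 3.65 at day 1 and −11.4 to 0.738 from day 1 to day 5 under restriction) and Gss at day 1 (−4.65 to 7.35). For Gpx4 the ranges were −2.03 to 3.44 from day 0 to day 5 and −0.669 to 4.80 from day 1 to day 5 in control medium.

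Centring also turned the calls over all genes under restriction to 3518 higher and 1245 lower at day 1 and 3757 and 1395 at day 5, from 226 and 3422 and from 411 and 3945, and equal list length gave 677 and 1614 and 1285 and 1683.

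Counts of called genes that moved by over 1.5 times were as follows. With equal list lengths 2291 genes were called under restriction at day 1 (3648 otherwise), 196 from day 0 to day 1 (631) and 670 from day 1 to day 5 under restriction (1184). A −log10 q of at least 3 gave 2897 under restriction at day 5 (4356) and 1296 from day 1 to day 5 in control medium (2193). A mean cover of at least 20% gave 188 for the difference between days (495), 1750 from day 0 to day 5 (2641) and 5436 for KO minus WT (8680), with fewer genes tested. Centring gave 335 from day 0 to day 1. With only the groups compared, the counts were 0 from day 0 to day 1, although 1898 had an unadjusted p under 0.05 in limma, 1617 from day 0 to day 5 and 565 from day 1 to day 5 under restriction. The cause was not tested beyond that.

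Leaving out 1 library gave 2356 to 3994 calls under restriction at day 1, 2799 to 4655 at day 5, 215 to 647 for the difference between days, 138 to 1011 from day 0 to day 1, 1843 to 2643 from day 0 to day 5, 1186 to 2685 and 425 to 1393 from day 1 to day 5 in control medium and under restriction, and 8643 to 8762 for KO minus WT. The replicate numbers did not pair the WT libraries, with 10 correlations of deviations from −0.439 to 0.0614. The fit with the replicate number as a block called 3436, 4176, 399, 466, 2457, 1988, 997 and 8738 genes in the order restriction at day 1 and day 5, their difference, day 0 to 1, day 0 to 5, day 1 to 5 in control medium and under restriction, and KO minus WT. Depth is unknown for all libraries.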
